A study of Rattus norvegicus with 12 samples.

Results

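Alcohol and aldehyde dehydrogenases were described in the livers of 12 obese ZSF1 rats, 6 females and 6 males, all 16 weeks old and untreated. The enzymes were chosen by symbol from a list of 10 fixed names, and 9 of them (Adh1, Adh4, Adh5, Adh7, Aldh1a1, Aldh2, Aldh3a2, Aldh8a1 and Aldh9a1) had a row among the 16478 genes counted. Aldh1l1 was not analysed here. ZSF1 rats come from a cross of strains with leptin receptor mutations, and both sexes here carried the obese phenotype, so the series holds no lean or drug-treated group. Each animal gave 1 RNA-seq library, made from 1 µg of total liver RNA with a TruSeq RNA kit.

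Alcohol dehydrogenases (ADH) oxidise alcohols such as ethanol and retinol to aldehydes in the cytosol, and aldehyde dehydrogenases (ALDH) oxidise aldehydes to acids, both with NAD or NADP as the electron acceptor. In the liver, ethanol oxidised by class I ADH becomes acetaldehyde, which is cleared mainly by the mitochondrial enzyme ALDH2. The same families carry retinol through retinal to retinoic acid, and individual members also clear formaldehyde, fatty aldehydes and the aldehydes formed in tryptophan breakdown and carnitine synthesis.

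The upstream sequences of 4 genes are shown because a pair of them are near copies and the other 2 share a motif. RefSeq (build GRCr8) gave a promoter for 8 of the 9 enzymes, and 17 ADH and ALDH genes of the count table had one. Only the 250 bases before the annotated start are used, printed 5′ to 3′ on the gene's strand. Capitals mark matches to any of 6 motifs: TATAAA on the gene's strand, and CCAAT, TTGCNNAA (C/EBP-type), TTCNNNGAA (STAT-type), AGGTCA (nuclear receptor type) and ATGCAAAT (octamer) on both strands.
Adh4, chr2:229621842-229622091, plus strand: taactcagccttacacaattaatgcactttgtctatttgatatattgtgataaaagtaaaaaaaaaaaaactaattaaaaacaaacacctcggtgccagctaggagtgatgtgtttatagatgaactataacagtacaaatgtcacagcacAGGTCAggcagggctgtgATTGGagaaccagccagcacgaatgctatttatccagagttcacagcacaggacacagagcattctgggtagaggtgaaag
Adh6, chr2:229576386-229576635, plus strand: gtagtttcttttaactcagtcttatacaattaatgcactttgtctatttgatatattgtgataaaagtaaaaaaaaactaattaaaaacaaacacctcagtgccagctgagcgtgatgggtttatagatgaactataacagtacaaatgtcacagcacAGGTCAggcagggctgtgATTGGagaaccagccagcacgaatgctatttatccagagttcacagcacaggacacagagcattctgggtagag
Aldh1a1, chr1:227537370-227537619, plus strand: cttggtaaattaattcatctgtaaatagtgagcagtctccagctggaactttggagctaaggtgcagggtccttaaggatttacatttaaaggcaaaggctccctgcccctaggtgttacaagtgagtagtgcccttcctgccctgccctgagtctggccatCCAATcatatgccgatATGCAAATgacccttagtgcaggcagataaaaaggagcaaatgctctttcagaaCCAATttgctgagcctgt
Aldh8a1, chr1:18003257-18003506, plus strand: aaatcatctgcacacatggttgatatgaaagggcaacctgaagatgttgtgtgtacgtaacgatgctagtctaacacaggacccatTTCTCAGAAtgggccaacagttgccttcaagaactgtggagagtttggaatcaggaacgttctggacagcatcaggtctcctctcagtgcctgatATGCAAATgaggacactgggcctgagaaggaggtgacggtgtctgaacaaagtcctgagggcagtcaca

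The Adh4 and Adh6 sequences, which belong to neighbouring genes of the ADH cluster on chromosome 2, were identical at 232 of 243 aligned positions (95.5%). The next closest of the 136 pairs, Adh5 and Aldh9a1, matched at 60 of 88 positions. Both Adh4 and Adh6 hold AGGTCA, starting 99 and 92 bases before the start, and CCAAT on the opposite strand (read as ATTGG), starting 81 and 74 bases before it. Over all 33469 promoter windows of the table, AGGTCA occurred in 14.1% and CCAAT in 34.0%. ATGCAAAT occurred in 1.56% of windows and in those of Aldh1a1 (72 bases before the start), Aldh8a1 (69 bases) and the related gene Aldh1a2 (133 bases). That motif was added to the search after the sequences had been seen. Aldh8a1 was the only one of the 8 enzymes with the STAT-type motif (7.67% of windows), Aldh1a1 and Adh1 held CCAAT more than once, and the Adh7 window held none of the motifs. TATAAA (8.06% of windows) and TTGCNNAA (9.22%) had no match among the 8 enzymes. A match describes letters and was not tested as a binding site.

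Library totals over genes ran from 6763879 to 29232871 counts and did not differ between the sexes (2-sided exact permutation p = 0.597). The share of counts held by the 20 most abundant genes was 39.7% ± 1.63 among females against 36.3% ± 0.894 among males (SD, n = 6 each), a difference with exact permutation p = 0.00433 (0.00866 adjusted over 4 library measures). Albumin made up 20.6% ± 2.13 of gene counts in the female libraries and 16.1% ± 2.31 in the male ones (exact permutation, adjusted p = 0.00866), and rows naming no gene held 28.1% ± 0.774 and 29.9% ± 1.46 of all counts (exact permutation, adjusted p = 0.0404). The part of these library differences in the results was not tested. Male 4 and female 12 had stood apart from their groups in earlier results on these libraries, and calls that change without them are given both ways. Albumin made up 11.6% of gene counts in male 4, against 16.3% to 17.8% in the other males. Female 12, at 22.7%, lay within the range of the other females (17.8% to 23.1%). The labels give no litter, cage or batch, and the animal numbers (males 1 to 6, females 7 to 13) follow sex, so a batch that followed them cannot be told apart from sex. The 9 enzymes had between 247 and 60517 counts in each library, far above the 3 counts that serve as the limit of detection (0.103 to 0.444 counts per 1000000, CPM). Hepatocyte markers were abundant in every library: the 11 measured summed to between 216363 and 328231 CPM.

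The comparison of the sexes asks how far liver transcripts differ between obese females and males. Most of the 9 enzymes were not called different between the sexes, which does not show that they were equal. Aldh2, which clears acetaldehyde in mitochondria, was higher in males. Aldh1a1, a cytosolic enzyme that oxidises retinal and acetaldehyde, and Adh7, a retinol-active ADH best known from stomach and other epithelia, were higher in females. In all, 2 of 9 were called higher in females, where 20.5% of the 9943 genes tested were, and 1 of 9 higher in males, where 22.7% were. Calls are edgeR quasi-likelihood tests with Benjamini-Hochberg adjusted p under 0.05 over all genes tested. Across all tested genes 43.2% were called, so 3 calls in 9 are no more than the background share. Without male 4, Adh1 and Adh5 were called as well, and 4 of 9 were higher in females. The share over all genes is not given for that setting. Without male 4 and female 12 together, also with 4 of 9, 2403 of 9927 genes tested were higher in females. With all 12 animals it was 2037 of 9943. The median log2 fold change (females over males) of the 9 was 0.11, beside -0.01 for all genes tested.

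**Figure D1:**
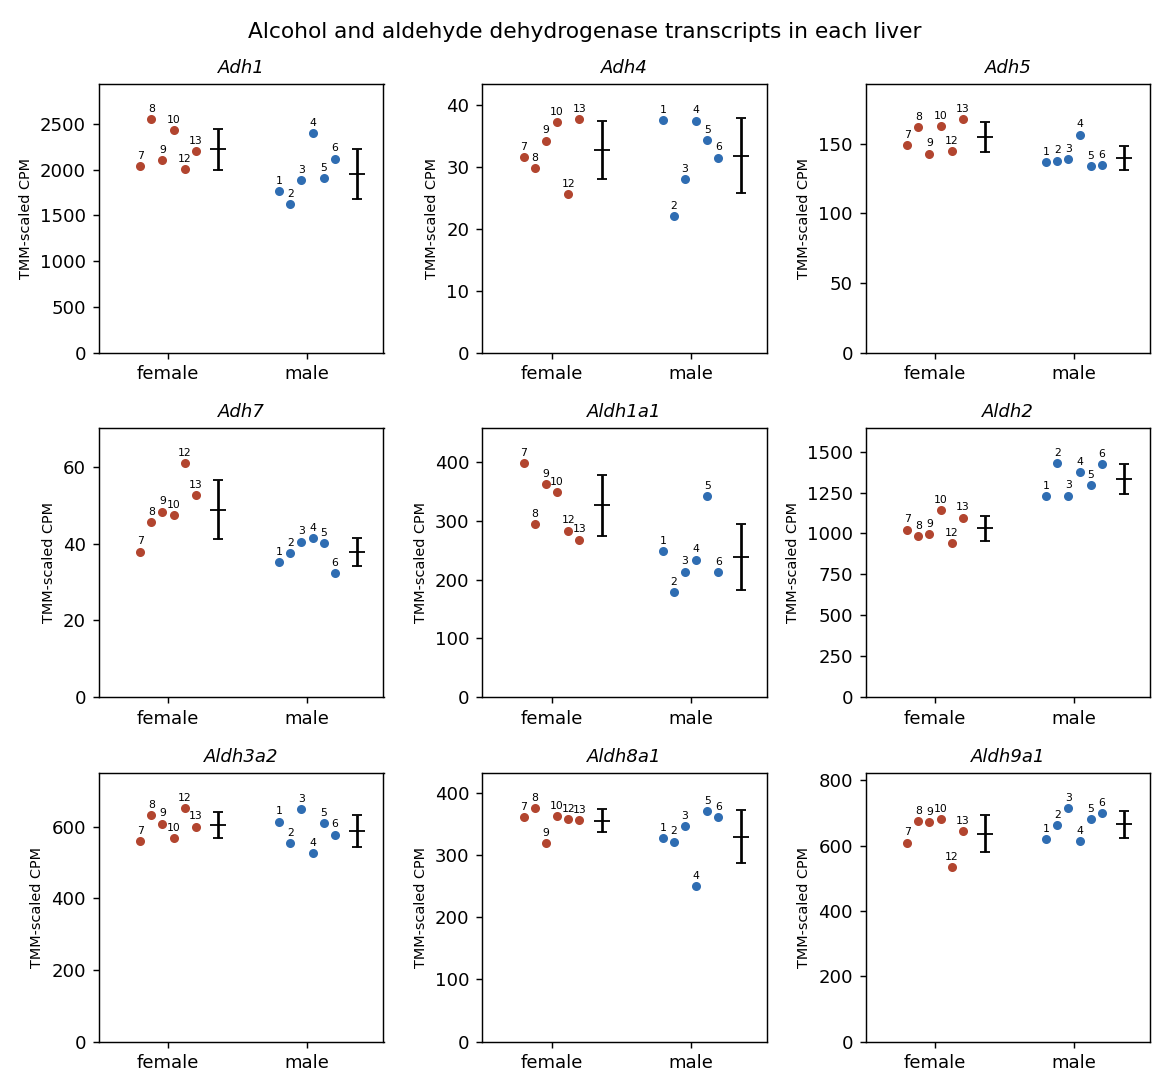
CPM (scaled by edgeR's TMM factors) of the 9 enzymes in each liver, numbered by animal, with the mean and SD of the 6 animals of each sex in black; every vertical axis starts at 0. Aldh2 is the only panel in which the sexes do not overlap (940.6 to 1141 in females, 1229 to 1429 in males), and male 5 lies among the females for Aldh1a1.

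Among the alcohol dehydrogenases, Adh1, the class I enzyme that carries most hepatic ethanol oxidation (named Adh1c in RefSeq), ran from 2006 to 2556 CPM in females (median 2155) and from 1624 to 2401 in males (median 1896). The ranges overlapped, with male 4 at 2401 CPM above 4 of the 6 females. The mean difference of 1.14-fold (log2 0.19, SE 0.10, 95% interval -0.03 to 0.41) was not called (adjusted p = 0.141). Without male 4 it was 0.27 on the log2 scale and was called (adjusted p = 0.0183).

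Adh7 stood between 37.9 and 61.0 CPM in females (median 48.0) and between 32.4 and 41.5 in males (median 38.8). Female 7 was the only female within the male range, and female 12 was highest. The difference was 1.29-fold toward females (log2 0.37, SE 0.10, adjusted p = 0.00694). Stomach and gut markers were nearly absent beside it: of 9 looked up, Tff2 had no count, 7 others averaged at most 0.258 CPM in either sex, and Cdh17 was higher in males (20.7 ± 7.42 against 0.494 ± 0.181 CPM).

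Adh5 encodes the glutathione-dependent formaldehyde dehydrogenase, which also reduces S-nitrosoglutathione. It ran from 143.0 to 168 CPM in females (median 156) and from 134 to 157 in males (median 137). Male 4, at 157 CPM, was the only male above the lowest female, and the other 5 males lay between 134 and 139 CPM. The difference of 1.11-fold toward females (log2 0.15, SE 0.06, 95% interval 0.01 to 0.29) narrowly missed the threshold (adjusted p = 0.0585, unadjusted p = 0.0262). It was called in 10 of 22 alternatives, among them without male 4 (log2 0.20, adjusted p = 0.0113), without female 9 (0.0408), without female 12 (0.0380) and with DESeq2 (0.0175), and adjusted p ran from 0.00470 to 0.117 over all of them.

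Adh4, the class II enzyme, which oxidises longer alcohols and retinol, ran from 25.6 to 37.7 CPM in females (median 32.9) and from 22.0 to 37.5 in males (median 32.9). The sexes covered the same range, and the difference was 0.05 on the log2 scale (SE 0.13, 95% interval -0.24 to 0.33, adjusted p = 0.80). It was 0.18 without male 4 and female 12 together and -0.04 without male 2, not called in either case. Adh6, whose upstream sequence nearly copies that of Adh4, differed between the sexes. It had only 10 to 78 counts a library and held 2.05 to 3.30 CPM in females against 0.547 to 1.14 in males, with no overlap. The female excess was 1.58 on the log2 scale (SE 0.21, adjusted p = 3.24e-05). The ratio of Adh6 to Adh4 counts within a library was 0.0798 ± 0.0153 in females against 0.0275 ± 0.00661 in males (SD, n = 6 each). This pair was chosen after the values had been seen, so the ratio is a description with no test. How similar the 2 transcripts are was not measured, so how reads were divided between them is uncertain. With the counts of Adh4 and Adh6 summed, an alternative chosen after seeing the data, the difference between the sexes was not called.

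Among the aldehyde dehydrogenases, Aldh2 separated the sexes completely. It ran from 940.6 to 1141 CPM in females (median 1010) and from 1229 to 1429 in males (median 1335), so that the lowest male stood above the highest female. The difference was 1.29-fold toward males (log2 -0.37, SE 0.07, 95% interval -0.53 to -0.21, adjusted p = 0.000952), and it kept its call and direction in all 22 alternatives (log2 -0.39 to -0.32). Non-overlapping groups were seen for 22.8% of all genes tested.

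Aldh1a1 ran from 268 to 398 CPM in females (median 322) and from 179 to 343 in males (median 224). Male 5, at 343 CPM, lay above 3 of the 6 females, while the other 5 males lay below every female. Its spread within a sex was the widest of the 9 enzymes, with a coefficient of variation of 15.8% in females and 23.5% in males. The difference was 1.37-fold toward females (log2 0.45, SE 0.14, adjusted p = 0.0190, and at most 0.0464 over the alternatives). Aldh1a7, a close relative of Aldh1a1, averaged 131 ± 18.2 CPM among the females against 23.4 ± 11.9 among the males, a 5.66-fold gap (adjusted p = 2.15e-05), with male 5 again the highest male at 46.0 CPM. The ratio of Aldh1a7 to Aldh1a1 counts, a pair also chosen after the values had been seen, was 0.405 ± 0.0486 in females against 0.0938 ± 0.0245 in males. Reads could have been shared between these genes, and with both counted as 1 feature, an alternative chosen after seeing the data, the female excess was 0.80 on the log2 scale (adjusted p = 0.000641).

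The remaining aldehyde dehydrogenases were not called. Aldh3a2, the fatty aldehyde dehydrogenase of microsomes and peroxisomes, ran from 559 to 653 CPM in females and from 527 to 649 in males (log2 0.04, 95% interval -0.12 to 0.19, adjusted p = 0.702). Aldh8a1, which oxidises an aldehyde of the kynurenine pathway and also retinal, ran from 319 to 376 CPM in females and from 250 to 371 in males (log2 0.11, interval -0.08 to 0.30, adjusted p = 0.327). The lowest animal of each sex stood apart there, female 9 at 319 CPM and male 4 at 250, and the rest of both sexes lay between 321 and 376. Without male 4 the difference was 0.05 on the log2 scale. Aldh9a1, which makes gamma-butyrobetaine, the precursor of carnitine, ran from 535 to 680 CPM in females and from 614 to 716 in males (log2 -0.07, interval -0.23 to 0.10, adjusted p = 0.502), a difference of -0.02 without female 12. For these 3 enzymes the intervals leave room for a difference of at most 0.30 on the log2 scale.

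Count ratios within each library set the enzymes beside each other. These pairs were chosen after the values had been seen, so the ratios are a description with no test, and counts are not corrected for gene length, so a ratio's size says nothing of relative transcript number. The ratio of Aldh2 to Adh1 counts, the enzymes that remove and make acetaldehyde, was 0.466 ± 0.0421 in females (0.385 to 0.501) and 0.693 ± 0.102 in males (0.573 to 0.880). All 6 males lay above all 6 females. The ratio of Aldh2 to Aldh1a1, the mitochondrial and cytosolic aldehyde dehydrogenases, was 3.22 ± 0.534 in females against 5.84 ± 1.43 in males, and only male 5, at 3.78, fell within the female range. The ratio of Adh1 to Aldh1a1 was 6.97 ± 1.36 in females against 8.45 ± 1.79 in males, with overlap.

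**Figure D2:**
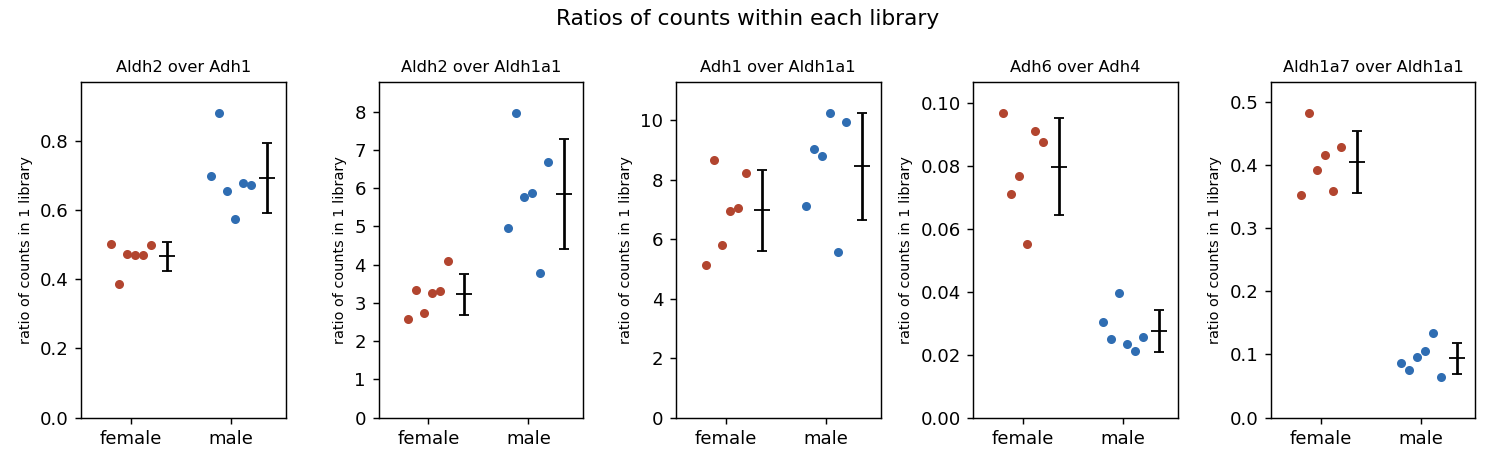
Ratios of raw counts of 2 genes within each library, females in red and males in blue, with the mean and SD of 6 animals in black; every axis starts at 0. Aldh2 over Adh1 is at least 0.573 in every male and at most 0.501 in every female, whereas Adh1 over Aldh1a1 overlaps.

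Relations between the enzymes from animal to animal could hardly be tested, since a lone relation over 6 animals cannot pass adjustment over 72, whatever its size. Of the 72 relations between 2 enzymes within a sex (36 pairs, n = 6 animals), none passed adjustment by exact permutation (smallest adjusted p = 0.65 for Pearson's r and 0.916 for Spearman's rho). Unadjusted, 2 had Pearson p under 0.05. Adh4 and Aldh2 in females had r = 0.89 (exact permutation p = 0.0167) and rho = 0.89 (p = 0.0333), with r = 0.82 without the 2 animals farthest in Adh4. Adh5 and Aldh8a1 in males had r = -0.96 (exact permutation p = 0.0181) and rho = -0.83 (p = 0.0583), with r = -0.50 without the 2 animals farthest in Adh5, one of them male 4.

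The tested genes whose log2 CPM followed Aldh2 most closely over the 12 libraries were Dpm3, RGD1359310 and Proc (Pearson r = 0.98 each), all higher in males. After each sex mean was subtracted they were Proc (0.90), the serine dehydratase gene Sds (0.89) and Dpm3 (0.89). For Aldh1a1 they were Vom1r90, Pak1 and Cdc42se1 (0.92 each), and Pak1 (0.89), Rapgef5 (0.87) and Cdc42se1 (0.86) after subtraction. Vom1r90 averaged only 1.61 CPM in females and 1.18 in males, so its likeness is limited by depth. These genes were picked as the most alike of all tested, the 12 points share the difference between the sexes, and no p is given.

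The gene groups around the 9 enzymes are given as counts of calls, to be read beside the 20.5% of all tested genes called toward females and the 22.7% called toward males. Of 14 other ADH and ALDH genes found, 12 passed the filter on low counts. The test called 4 of them higher in females, and 1 higher in males (2 in 8 of 22 alternatives, among them with female 7, female 9, male 2, male 4 or male 6 left out). Aldh1b1, a mitochondrial relative of Aldh2 that oxidises acetaldehyde and retinal, averaged 96.4 ± 26.2 CPM among females against 2.99 ± 1.64 among males, a 31.6-fold gap (log2 4.98, SE 0.29, adjusted p = 1.04e-07), the opposite direction to Aldh2. Aldh1a2, which makes retinoic acid, was low but separate, at 3.69 ± 0.797 and 1.30 ± 0.417 CPM (2.83-fold, adjusted p = 5.91e-05). Adhfe1, a mitochondrial hydroxyacid-oxoacid transhydrogenase named for an ADH-like iron domain, was 1.38-fold higher in males (339 ± 21.2 against 246 ± 15.1 CPM, adjusted p = 4.59e-05). Aldh6a1, of valine and pyrimidine breakdown, had the highest CPM of those not called (1003 ± 59.2 and 988 ± 109 CPM). The median log2 fold change of the 12 was 0.16.

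**Figure D3:**
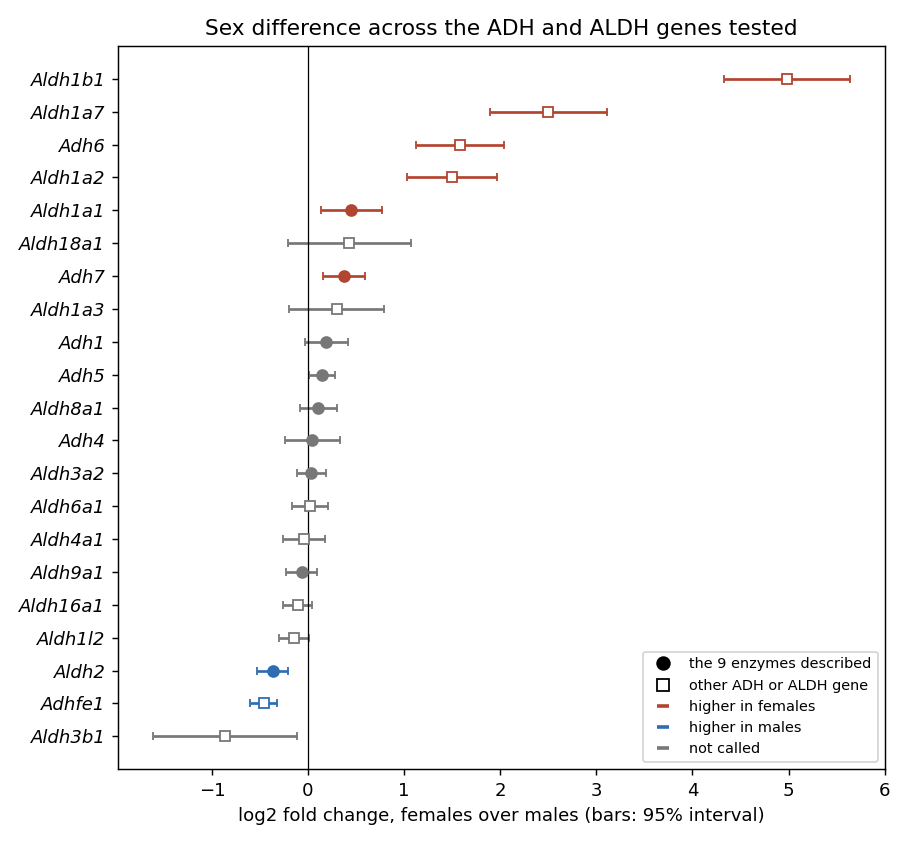
Log2 fold change (females over males) of the 9 enzymes, as filled circles, and of 12 other ADH and ALDH genes, as open squares, with 95% intervals (estimate ± a t quantile times SE); red and blue mark calls at adjusted p under 0.05. The 9 enzymes lie between -0.37 and 0.45, inside the span of their relatives, whose called genes reach 4.98 (Aldh1b1).

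Of 20 retinoid genes around Adh7 and Aldh1a1, the test called 4 higher in females against 7 higher in males (median log2 fold change -0.08). Rdh2, a microsomal retinol dehydrogenase, was 5.65-fold higher in males (333 ± 51.9 against 58.9 ± 4.81 CPM, adjusted p = 1.37e-10). Rbp4, which carries retinol out of the liver, was 1.54-fold higher in males (6091 ± 254 against 3944 ± 181 CPM, adjusted p = 5.67e-06). Cyp26a1, which degrades retinoic acid, was 2.31-fold higher in females (10.5 ± 2.01 against 4.63 ± 2.51 CPM, adjusted p = 0.00531), and Rdh11 1.53-fold.

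Among other genes of ethanol and acetate handling, 1 of 5 was higher in females and 1 in males (median 0.30). Acss2, which turns acetate into acetyl-CoA, was 2.32-fold higher in females (205 ± 70.2 against 88.1 ± 12.1 CPM, adjusted p = 0.000488). Catalase (Cat), which can oxidise ethanol with hydrogen peroxide, was 1.38-fold higher in males (adjusted p = 0.000495). Cyp2e1, the ethanol-oxidising P450, stood at 1585 ± 303 and 1189 ± 290 CPM and was not called (adjusted p = 0.0584), but was in 8 alternatives, including DESeq2 (0.0307), library totals only (0.0445) and with female 8, female 9, male 5 or male 6 left out (0.0354 to 0.0451). At the other end, without male 4 and female 12 together, its difference was 0.26 on the log2 scale (adjusted p = 0.156), beside 0.41 with all animals. Where it was, 2 genes of this group were higher in females.

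Aldehyde reductases and oxidases other than ADH and ALDH held 5 of 11 called higher in males, with 0 called the other way (1 without male 4; median -0.19). Akr7a3 and Akr7a2, aldo-keto reductases of toxic aldehydes, were 2.10-fold and 1.31-fold higher in males. Esd, the S-formylglutathione hydrolase that acts after Adh5 in formaldehyde disposal, was 1.21-fold higher in males (102 ± 7.86 against 84.3 ± 3.87 CPM, adjusted p = 0.00209), and Aox3l1 1.26-fold (adjusted p = 0.0195; 0.0511 without male 5). The aldehyde oxidase gene Aox1 was not called (544 ± 101 and 546 ± 87.9 CPM).

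Near Aldh3a2, genes of phytol and ether lipid handling held 4 of 7 called toward males, with 2 toward females (1 in 7 of 22 alternatives, among them with female 8, female 10, female 13, male 2, male 3 or male 6 left out; median -0.28), while Aldh3a2 itself was not called. Phyh and Hacl1, which shorten phytanic acid in peroxisomes, were 2.93-fold (1753 ± 289 against 599 ± 82.4 CPM) and 2.52-fold higher in males, and Phyhd1 1.34-fold. Far1, a fatty acyl-CoA reductase, was 4.21-fold higher in females, at 1.36 ± 0.441 and 0.324 ± 0.185 CPM. It had only 7 to 26 counts a library in females and 1 to 9 in males. It passed the filter on low counts only through the females, so its call and fold are limited by depth. Of 8 kynurenine pathway genes around Aldh8a1, 3 were called toward males, with 1 toward females (median -0.18). Tdo2, which opens the tryptophan ring, differed by -0.68 on the log2 scale, Haao by -0.56 and Qprt by -0.25, all higher in males, and the aminotransferase gene Ccbl1 1.14-fold higher in females. Of 4 carnitine synthesis genes, Aldh9a1 included, only Bbox1, which catalyses the last step, was called, 1.43-fold higher in females (186 ± 4.64 against 130 ± 25.1 CPM, adjusted p = 0.00203). Folate genes, listed as partners of Aldh1l1, held 4 of 12 called toward males, with 0 toward females (1 without male 1; median -0.11), led by Gldc of the glycine cleavage system (2.22-fold) and Ftcd of histidine breakdown (1.53-fold).

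**Figure D4:**
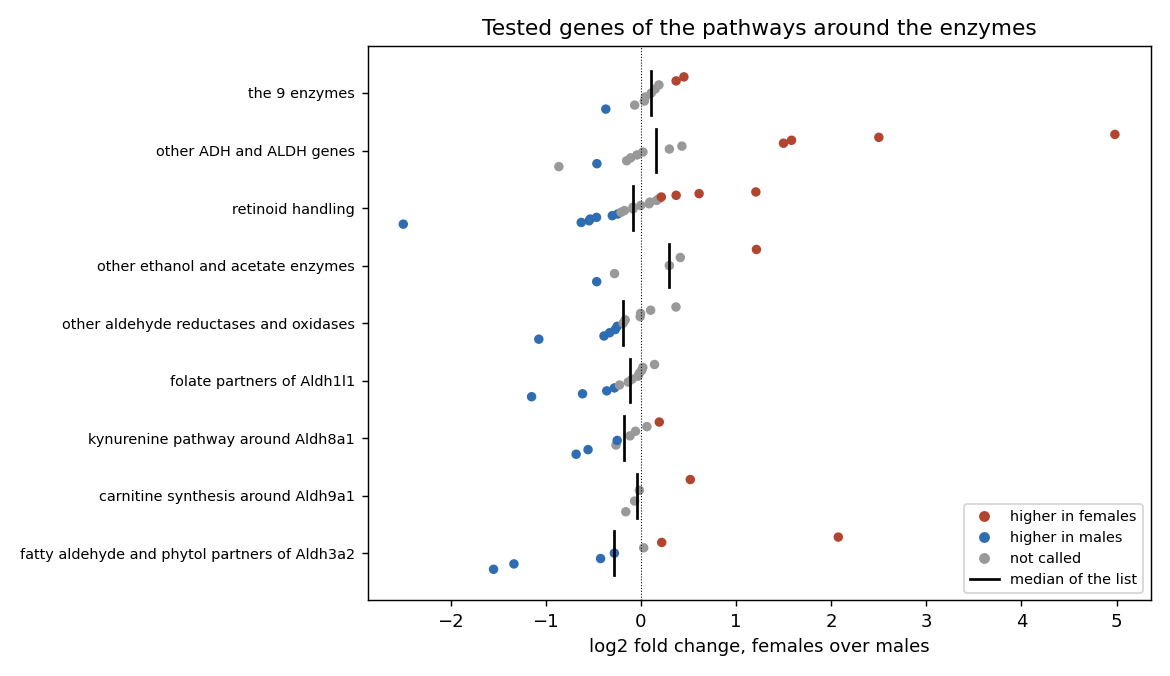
Log2 fold change (females over males) of every tested gene in the 9 enzymes and 8 surrounding gene groups, coloured by the call at adjusted p under 0.05, with each group's median as a black bar. Medians run from -0.28 (phytol and fatty aldehyde genes) to 0.30 (ethanol and acetate genes), and that of the 9 enzymes is 0.11.

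Calls among markers of zones and cell types are to be read beside the background shares. These are 20.5% of all tested genes toward females and 22.7% toward males. Macrophage, stellate and bile duct markers were called no more often than that. The part of marker differences in the results was not tested. Of 11 hepatocyte markers 1 was called toward females, with 4 toward males. Of 8 pericentral hepatocyte markers 4 were called toward females, with 1 toward males, and their summed level was 3055 to 3882 CPM in females against 1851 to 2680 in males. Of 10 periportal markers 7 were called toward males, with 0 toward females (7647 to 8402 and 9428 to 13185 CPM). Single genes weighed heavily in these sums. Pericentral Oat averaged 911 CPM in females and 153 in males, and periportal Pck1 635 and 2370. Pericentral Rgn was the 1 called toward males. Periportal Cps1, at 3445 CPM in females and 3097 in males, was not called. Sinusoidal endothelial markers had 4 of 6 called toward females, with 0 toward males (106 to 130 and 52.7 to 104 CPM), and macrophage markers 2 of 10 and 0 (219 to 323 and 128 to 445 CPM). Stellate cell markers, which include the retinoid storage gene Lrat, had 2 of 10 called toward females, with 1 toward males (342 to 438 and 294 to 437 CPM), and bile duct markers 0 of 3. In whole liver, fewer cells of a type and less RNA per cell cannot be told apart. Acinar pancreas markers gave Cpa1 higher in females and Cela1 in males, while Prss1 had no count.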

How the data were processed

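The authors deposited whole-number read counts per gene symbol for each liver, with no normalization. Bowtie2 2.0.2, DESeq and the rat build rn4 are named in the submitters' processing notes. The counting program, annotation and strand setting are not given in the sources used here. The 5 rows that name no gene (27.1% to 31.7% of a library) were left out. By their names they hold reads with no gene, ambiguous, of low quality, not aligned or not uniquely aligned. The treatment of reads mapping to several places is not stated beyond these names. How many reads of overlapping, antisense or near-identical genes were still counted for another gene is therefore not known.

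From these counts, edgeR 4.0.16 (R 4.3.3) was run on all genes: filterByExpr (minimum count 10, total 15), TMM factors, quasi-likelihood F tests under robust dispersion estimates, and Benjamini-Hochberg adjustment over 9943 genes. SE was taken as log2 fold change over root F, and 95% intervals use a t quantile. Likeness and correlations used log2 CPM (prior count 2). DESeq2 1.42.0, limma 3.58.1 (voom), other scalings and filters, and leaving out each animal were the alternatives. No pair of libraries of 1 sex matched to within counting noise (30 pairs, each with a chi-square of 6.02 or more per degree of freedom). Pairs holding male 4 had values of 91.8 to 212, against 9.90 to 27.9 for other male pairs. Pairs holding female 12 had 38.6 to 54.0, against 6.02 to 28.4 for other female pairs. Animals of the same sex differ in the labels only by number, so p-values measure the spread between these 12 samples.

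The enzymes and gene lists were chosen with earlier results of these data known. Named were every enzyme, and of each list up to 4 called genes with the largest fold change and the most abundant gene not called. A gene that this rule named is not reported here. Adhfe1, Cdh17, Cpa1, Cela1 and the other marker genes were named after their values were seen. CPM is not corrected for transcript length, so the most abundant gene of a list is the one with the highest CPM and no more.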

Additional observations from a re-analysis of the deposited data

Results flagged for a closer look

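Among 86 groups of 6 animals (each of the 9 enzymes and 34 named genes in each sex), 8 had 1 animal far from the other 5, with a gap to its nearest neighbour above the 95% limit of Dixon's test. Chance alone flags about 1 group in 20. Of the 9 enzymes, Adh5 in male 4 stood at 157 CPM (other males 134 to 139), and Aldh8a1 in female 9 at 319 CPM (other females 356 to 376). Of the related genes, Aldh1b1 in female 13 stood at 146 CPM (other females 70.3 to 97.6), Aldh1a7 in male 5 at 46.0 CPM (other males 13.6 to 24.6), and Aldh1a2 in male 5 at 2.10 CPM (0.984 to 1.37). Gldc in male 6 stood at 415 CPM (279 to 304). Bbox1 and Hacl1 were lowest in male 4, at 82.0 CPM (130 to 154 in the other males) and 200.0 CPM (339 to 409).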

How the results depend on the processing

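No paired analysis was possible because the sexes share no animal numbers. Adh7, Aldh1a1 and Aldh2 kept their direction and call in every alternative run, and Adh4, Aldh3a2, Aldh8a1 and Aldh9a1 were never called. Adh1 was called without male 4 and female 12 together (log2 0.30). With each animal left out in turn it ran from 0.14 to 0.27 and was called only without male 4. Adh5 was called with RLE factors (0.16), upper quartile factors (0.18), library totals (0.17), a filter at a mean of 1 CPM (0.16), DESeq2 (0.16), scaling without the 20 most abundant genes (0.16) and without male 4 and female 12 together (0.22), and ran from 0.13 to 0.20 with each animal left out. The number of the 9 enzymes higher in females was 4 without male 4 and female 12 together, where 2403 of 9927 genes tested were. It was 2 to 4 with each animal left out, settings for which the share over all genes is not given. Counts of other ADH and ALDH genes higher in males were 2 with DESeq2, without robust dispersion and without both animals (1 to 2 with each left out). Over all genes tested, 2218 of 9912, 2278 of 9943 and 2231 of 9927 were higher in males in those settings, in that order. Ethanol and acetate genes higher in females were 2 with upper quartile factors, library totals, the 1 CPM filter and DESeq2 (1 to 2 with each left out), and those higher in males 2 without both animals (1 to 2). In those settings toward females, in that order, 2250 of 9943, 2082 of 9943, 2075 of 9536 and 2148 of 9912 genes tested were higher. Without both animals 1 aldehyde reductase was higher in females (0 to 1 with each left out). Folate genes higher in females were 0 to 1 with each left out. Phytol genes higher in females were 1 with the 1 CPM filter, which Far1 did not pass (1 to 2 with each left out). The cause of the other changes was not tested. The median log2 fold change of all genes stayed between -0.01 and 0.02 under every scaling. At 10 to 78 counts a library, Adh6 is limited by depth, as is Far1 at 1 to 26.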
